A study of Mus musculus with 6 samples.

Results

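The cells described here are those that the study's annotation places in its class Podocytes/Glom, 514 of the 22154 mouse kidney cells in the series. The class name was the sole criterion, and the counts of a panel of 456 genes were read for each of these cells. The study asked how the nephron adapts to furosemide, a loop diuretic that inhibits NKCC2, the salt transporter of the thick ascending limb. The mice were wild type (WT in the sample titles), of strain C57BL/6J and aged 16 weeks. Over 1 week they received either furosemide at 70 mg/kg or vehicle. Both were given in gel food with 104 µmol sodium per kcal, so that both groups ate the same diet. Furosemide libraries 2, 4 and 6 held 68, 118 and 78 cells of the class, and vehicle libraries 1, 3 and 5 held 84, 61 and 105. No cell number was used by more than 1 library within the class, while 8 of its cells had a number that a cell of another class also carried in a different library.

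The glomerulus is a tuft of capillaries whose outer wall is covered by podocytes. Their foot processes are joined by the slit diaphragm, of which nephrin (Nphs1) is a main component, over a basement membrane that holds chains of type IV collagen. Mesangial cells lie between the capillaries, and renin-secreting juxtaglomerular cells, a specialised form of arteriolar smooth muscle cell, sit in the wall of the afferent arteriole. Renin starts the cascade that yields angiotensin II, and loop diuretics are known to stimulate its release.

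The class held few counts per cell. Its median was 648 counts, the lowest of the 15 classes, with single cells between 180 and 4506. Median counts per class cell were 742.5, 686.5 and 471 in furosemide libraries 2, 4 and 6, against 635.5, 835 and 598 in vehicle libraries 1, 3 and 5. In all, 420 of the 456 panel genes had a count in the class. The level of 108 genes was higher in it than in each of the other 14 classes, and 27 genes reached 100 CPM (a level scaled to the total counts of the class) there together with a level at least 10 times that of the next class.

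The 4 markers given for the class were present and concentrated in it, but they marked very different shares of its cells. Comparisons of the class with other classes are a description, because the class was itself made by clustering the same genes. Podxl (podocalyxin, a sialomucin of podocytes and of vascular endothelium) had a count in 414 cells, or 80.5%. Acta2 (smooth muscle actin) had a count in 190 cells (37.0%), Nphs1 in 69 (13.4%) and Ren1 (renin) in 33 (6.42%). In the other class with the most such cells, the shares were 3.59% for Podxl in Thin Limb, 4.67% for Acta2 and 0.935% for Nphs1 in the class named mystery cells, and 0.619% for Ren1 in DCT2. These other classes were deeper, with medians of 1122, 1290 and 1625 counts per cell. After each cell was thinned to 300 counts, which left out 20 furosemide and 1 vehicle cell of the class, Podxl had a count in 77.7% of class cells, against at most 1.37% in another class. Thinned shares in the class, against the highest in another, were 31.4% and 1.89% for Acta2, 11.4% and 0.0526% for Nphs1, and 6.09% and 0.268% for Ren1.

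**Figure D1:**
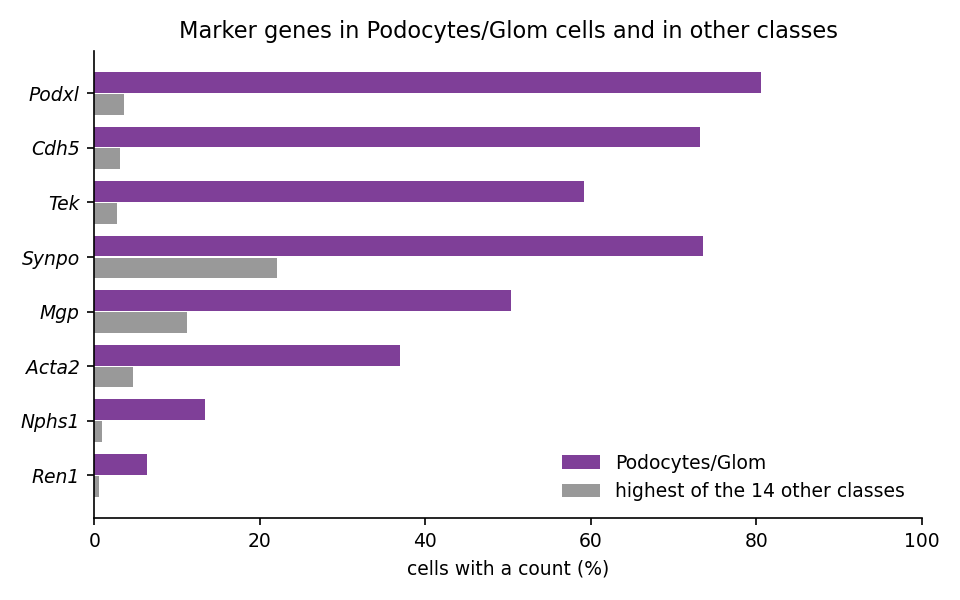
Share of cells with at least 1 count of 8 marker genes (horizontal axis, percent) in Podocytes/Glom cells and in whichever of the 14 other classes had the highest share. Cdh5 was counted in 73.2% of class cells, while Nphs1 was counted in 13.4%.

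For most cells of the class the data went against the podocyte part of its name. Whether its cells with endothelial transcripts came from the glomerulus was not tested. Cdh5 (VE-cadherin, the adhesion molecule of endothelial junctions) had a count in 376 cells (73.2%), and Tek (the endothelial angiopoietin receptor Tie2) in 304 (59.1%). In another class, Cdh5 reached at most 3.08% of cells and Tek at most 2.74%, both in Thin Limb. By contrast, the 69 cells with Nphs1 were 13.4% of the class. Podxl did not separate the cells, since 372 of the 376 cells with Cdh5 also had it. The class therefore holds cells with podocyte, smooth muscle and renin transcripts, but cells with endothelial transcripts are its largest group, and it is called by the annotation's name below only as a label. Of the endothelial list 4 of 20 genes were in the panel, which lacked Pecam1 and Kdr, so the endothelial pattern rests on Cdh5, Tek, Pdgfb and Edn1.

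Clustering the 514 cells among themselves gave 6 clusters. The genes that lead them are a description, because the clusters were made from the same counts. Cluster 1 held 28 cells and was the sole one given a cell type name here. All 28 had counts of Nphs1, Col4a3 (a type IV collagen chain of the glomerular basement membrane), Vegfa (the growth factor that podocytes send to the capillary) and Podxl, 7 of its 10 leading genes were on the podocyte list, and 1 of the 28 cells had a count of Cdh5. It is called podocyte-like and made up 5.45% of the class.

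Clusters 2, 3 and 6 together held most of the class and had endothelial markers in common. Cdh5 had a count in 57 of 57, 112 of 122 and 201 of 203 of their cells, and Tek in 77.2%, 79.5% and 77.3%. Cluster 2 (57 cells) was led by Aqp1 (the water channel aquaporin 1), Akr1b3 (aldose reductase) and Tmem252, and also carried Igfbp3. Cluster 3 (122 cells) was led by Igfbp5, Cyp4b1 and Plat (tissue plasminogen activator), which had a count in 96.7%, 97.5% and 100% of its cells. Mrc1 ranked among its leading genes from 23.0% of the cells, and Ccl5 from a single cell (0.820%). Within it, 36 cells (29.5%) had a count of Nphs1, at 2581 CPM over the cluster against 23595 CPM in the podocyte-like cells. Across the class, 34 cells had counts of both Nphs1 and Cdh5, of which 3 had at least 5 counts of each, and whether such cells are single cells was not tested. Cluster 6 (203 cells) was led by S100a4, Trpv4 (a calcium-permeable channel), Itgb4 and Edn1 (the vasoconstrictor endothelin 1). Edn1 had a count in 78.3% of its cells, against 38.6% in cluster 2 and 12.3% in cluster 3.

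Clusters 4 and 5 had few cells with Cdh5 or Tek. Cluster 5 (59 cells) was led by Ren1, Acta2 and Kcnmb1 (a smooth muscle subunit of the calcium-activated potassium channel). Every one of its cells had Acta2, 54 (91.5%) had Mgp (matrix Gla protein) and 14 (23.7%) had Des (desmin), but Ren1 was counted in only 13 of the 59. Cluster 4 (45 cells) was led by Igfbp6, C3, Col6a1, Dkk3 and Col1a1 (type I collagen), and Mgp was counted in 32 of its cells. Nphs1 was counted in 3 of its cells and Cdh5 in 1. At a finer resolution it split into 15 and 30 cells.

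**Figure D2:**
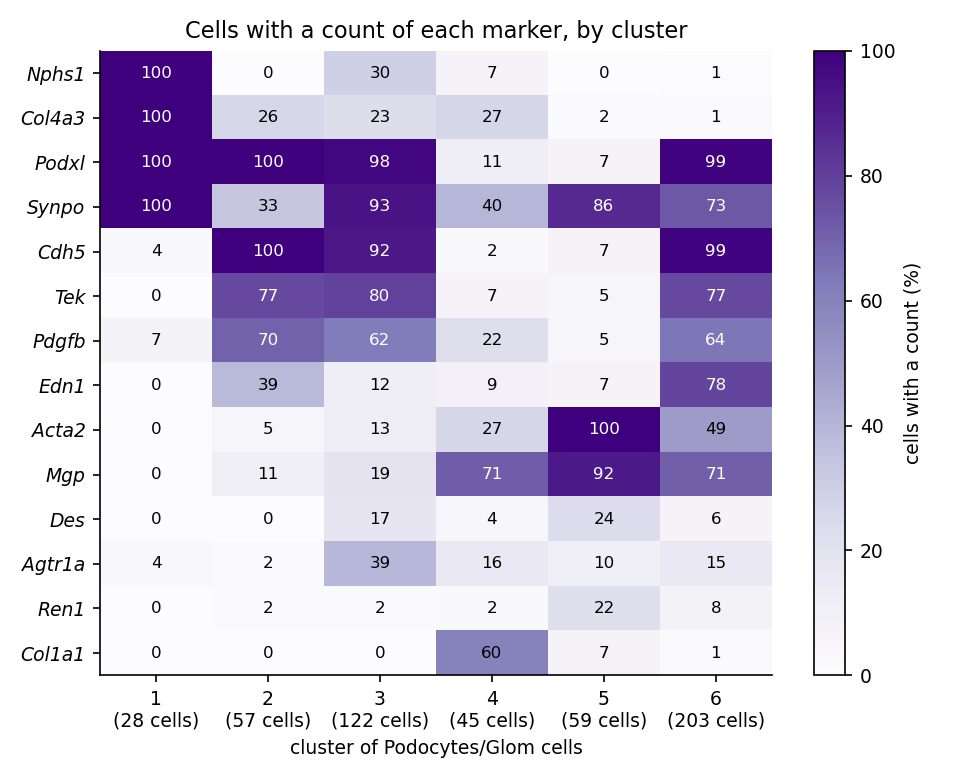
Percent of cells with at least 1 count (number and shade) of 14 markers, one per row, in the 6 clusters of Podocytes/Glom cells, one per column. Nphs1 and Col4a3 were counted in every cell of cluster 1, Cdh5 in at least 91.8% of the cells of clusters 2, 3 and 6, and Acta2 in every cell of cluster 5.

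Libraries differed in their mix of these clusters. Cluster 3 made up 20.6%, 31.4% and 39.7% of class cells in furosemide libraries 2, 4 and 6, against 26.2%, 11.5% and 10.5% in vehicle libraries 1, 3 and 5. Cluster 6 made up 25.0%, 41.5% and 41.0% in the furosemide libraries, against 52.4%, 49.2% and 29.5% in the vehicle libraries. In both clusters the treatments overlapped. Cluster 4 was uneven among libraries of the same treatment: it had 18, 7 and 2 cells in furosemide libraries 2, 4 and 6, against 0, 3 and 15 in vehicle libraries 1, 3 and 5. Furosemide library 2 stood apart in the class, with Cdh5 in 52.9% of its cells, against 63.8% to 82.1% in the 5 other libraries. A level summed over the class therefore depends on the mix, and a change in the mix and a change per cell cannot be told apart in it.

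**Figure D3:**
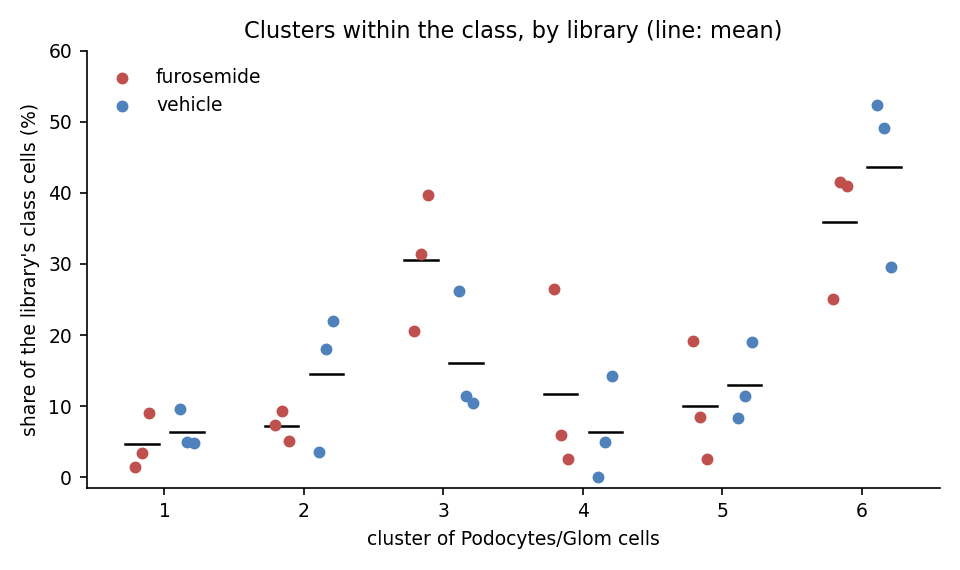
Share of each library's Podocytes/Glom cells in each of the 6 clusters (vertical axis, percent), with 1 point per library, furosemide left and vehicle right, and a line at the mean of 3 libraries. The points of both treatments overlap in every cluster, and cluster 4 ranges from 0% to 26.5%.

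The share of all cells that fell in the class was 2.23%, 2.66% and 2.17% in furosemide libraries 2, 4 and 6, against 2.06%, 1.84% and 2.85% in vehicle libraries 1, 3 and 5. Exact 95% binomial intervals, which cover counting error only, reached 1.72% to 3.18% over the furosemide libraries and 1.41% to 3.44% over the vehicle libraries. The groups overlapped, with means of 2.35% ± 0.265 for furosemide and 2.25% ± 0.534 for vehicle (SD, n = 3 each; two-sided exact permutation p = 0.8, adjusted over 15 classes 0.857). With 3 libraries against 3, that test cannot give a p under 0.1.

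The shares of class cells with at least 1 count of the 4 markers overlapped between treatments. Ren1 had a count in 7.35%, 5.93% and 10.3% of class cells of furosemide libraries 2, 4 and 6, against 2.38%, 3.28% and 8.57% in vehicle libraries 1, 3 and 5. Acta2 had a count in 33.6% ± 9.95 of furosemide and 41.8% ± 3.62 of vehicle class cells, Nphs1 in 14.6% ± 5.31 of furosemide and 13.5% ± 6.29 of vehicle cells, and Podxl in 77.2% ± 20.1 of furosemide and 83.1% ± 9.82 of vehicle cells (SD, n = 3 libraries each). The exact permutation p was 0.3 for Ren1 and for Acta2 (adjusted over the 4 genes 0.6), 0.9 for Nphs1 and 0.8 for Podxl (adjusted 0.9 for both). The 4 markers were also compared at thresholds of 2, 5 and 10 counts, and the treatments did not overlap in 2 of these comparisons. At least 5 counts of Acta2 were found in 25.0%, 20.3% and 11.5% of class cells of furosemide libraries 2, 4 and 6, against 26.2%, 27.9% and 26.7% in vehicle libraries 1, 3 and 5. At least 10 counts of Nphs1 were found in 2.94%, 4.24% and 3.85% of furosemide class cells, against 8.33%, 6.56% and 4.76% of vehicle class cells. For both the exact permutation p was 0.1, the smallest that 3 libraries against 3 can give. A single comparison reaches it at a rate of 0.1 under random labels, and these were not adjusted for the number of thresholds. At 10 counts Acta2 overlapped again, with means of 16.4% with furosemide and 21.4% with vehicle (exact permutation p = 0.3). After thinning to 300 counts the mean shares were 17.0% with furosemide and 20.9% with vehicle for Acta2 at 5 counts (exact p = 0.3), and 0% with furosemide and 1.04% with vehicle for Nphs1 at 10 (exact p = 0.4).

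Renin transcripts were held by very few cells. The class had 9536 counts of Ren1, which was 99.2% of all Ren1 counts in the series, and the cells outside the class had 81. Of these 9536 counts, 8606 (90.2%) lay in 5 cells. In the highest cell, of furosemide library 2, 4128 of 4506 counts were Ren1, and in the highest vehicle cell, of library 3, 2459 of 3083 were. At least 10 counts were found in 20 cells, 12 of them from furosemide and 8 from vehicle libraries. Of these 20 cells, 17 had a count of Acta2, 18 of Mgp, 14 of Cdh5 and 1 of Nphs1, and 9 lay in cluster 5 and 11 in cluster 6. Over all class cells, 37.0% had a count of Acta2, 50.4% of Mgp, 73.2% of Cdh5 and 13.4% of Nphs1. The 9025 Ren1 counts of cluster 5 compare with 498 in cluster 6, where the highest cell had 152.

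**Figure D4:**
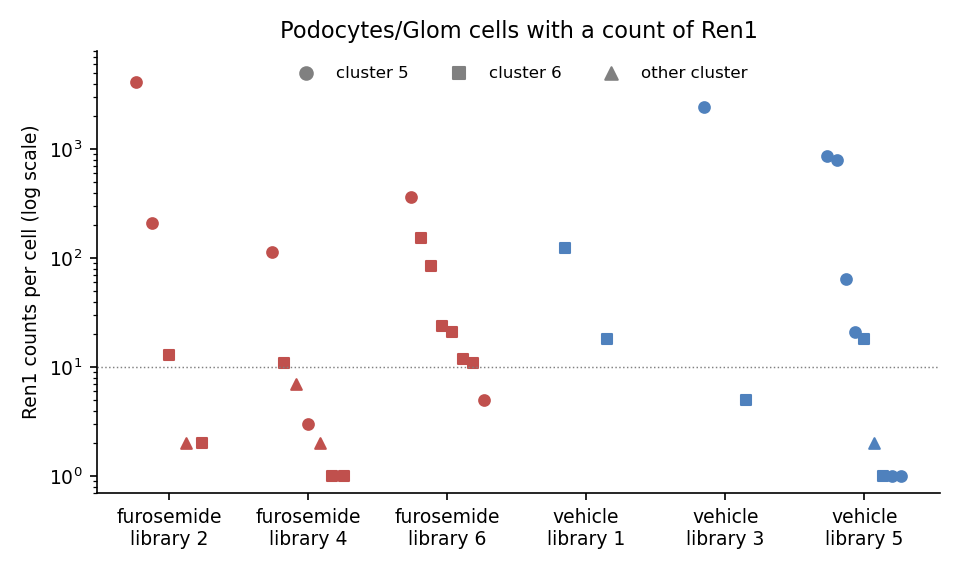
Ren1 counts per cell (vertical axis, log scale) in the 33 Podocytes/Glom cells with at least 1, by library, with furosemide libraries on the left, and with the cluster as the shape of the point; the dotted line marks 10 counts. A single cell held 4128 counts in furosemide library 2 and 2459 in vehicle library 3, and furosemide library 6 had 7 cells with 10 counts or more.

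A Ren1 level summed over the class was thus largely set by the 1 or 2 highest cells of each library. After scaling by edgeR's trimmed mean of M-values (TMM), Ren1 was at 82271, 1395 and 16002 CPM in furosemide libraries 2, 4 and 6, against 2071, 46905 and 23083 CPM in vehicle libraries 1, 3 and 5. The libraries of each treatment spanned more than the treatments differed. The fitted change was 0.47 ± 1.47 on the log2 scale (SE; edgeR's quasi-likelihood test, adjusted p = 0.946), and it was -0.081 without the cell with the most Ren1 in each library and -1.49 without furosemide library 2. Of the renin-angiotensin list, 5 of 12 genes were in the panel and 4 were tested, of which none was called. The median change of these 4 was 0.40. Agtr1a, the main angiotensin II receptor of the vessel wall, was at 605, 1086 and 1021 CPM in the furosemide libraries, against 397, 838 and 524 CPM in the vehicle libraries, which overlapped (0.63 ± 0.36, adjusted p = 0.746 by edgeR). Ace, the enzyme that makes angiotensin II, differed by 0.34 ± 0.34 (adjusted p = 0.861 by edgeR). Atp6ap2, the (pro)renin receptor, averaged 2013 ± 234 CPM with furosemide and 1980 ± 282 CPM with vehicle (SD, n = 3 each). The precursor Agt had 15 counts in the class and was not tested.

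Counts summed over the class per library were tested for 239 genes, and 1 of them was called at an adjusted p under 0.05, which is 0.418% of those tested. It was Calb1, higher with furosemide. No gene was called lower. At an unadjusted p under 0.05 there were 15 genes (6.28%), and the libraries did not overlap for 11 genes higher (4.60%) and 12 genes lower (5.02%) with furosemide, 9.62% of those tested together. Counts were also simulated with the same dispersion (0.258, the common value of this class) for every gene. On these, the test called 14 of 61 genes changed by 1 on the log2 scale, 30 of 58 changed by 2 and 0 of 124 unchanged ones. So many changed genes ease the adjusted threshold, and differences in spread between genes were left out. The rates may thus overstate what could be detected here, and changes of that size could often be missed.

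Of the podocyte list, 11 of 34 genes were in the panel and 8 were tested, with 0 called. Their median change was -0.35, beside -0.01 over all 239 genes, and 7 of the 8 estimates were below 0. Nphs1 was at 1001, 996 and 1947 CPM in furosemide libraries 2, 4 and 6, against 2203, 1713 and 1126 CPM in vehicle libraries 1, 3 and 5. These overlapped, with a change of -0.36 ± 0.39 (SE; edgeR adjusted p = 0.853). Podxl (-0.23 ± 0.34), Vegfa (-0.43 ± 0.40) and Col4a3 (-0.54 ± 0.39) overlapped too, with adjusted p of 0.850 to 0.875 by edgeR. Leaving out single libraries moved the change of Nphs1 between -0.75 and -0.10, that of Vegfa between -0.83 and -0.22 and that of Col4a3 between -0.98 and -0.32. Synpo, an actin-associated protein of foot processes, was the sole listed gene with an estimate above 0 (0.49 ± 0.26, adjusted p = 0.746 by edgeR). It was not confined to podocyte-like cells, with a count in 378 class cells, of which 273 also had Cdh5. Its change was 0.88 ± 0.24 in cells with Cdh5 and -0.42 ± 0.68 in cells without, neither called. Npnt (nephronectin, a basement membrane ligand of integrins) was the sole listed gene whose libraries did not overlap, at 2324, 2740 and 2873 CPM with furosemide, against 3672, 4245 and 3129 CPM with vehicle. Its change of -0.48 ± 0.26 did not pass (adjusted p = 0.746 by edgeR). Npnt had a count in all 28 podocyte-like cells but also in 152 of the 203 cells of cluster 6.

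The 4 smooth muscle, mesangial and pericyte genes of the panel were all tested, with 0 called and a median change of 0.60. The list was not confined to cells without Cdh5. Agtr1a was counted in 39.3% of the cells of cluster 3, and Mgp was at 26676 to 111307 TMM-scaled CPM in cluster 6. Acta2 was at 55326, 29187 and 16216 CPM in furosemide libraries 2, 4 and 6, against 30329, 21130 and 47605 CPM in vehicle libraries 1, 3 and 5. Its change was 0.02 ± 0.51 (SE; adjusted p = 0.987 by edgeR), and its sign turned with library size alone as the scaling (-0.028). Mgp was at 152128, 29695 and 35827 CPM in the furosemide libraries, against 32591, 52293 and 57962 CPM in the vehicle libraries. Its change was 0.61 ± 0.66 (adjusted p = 0.853 by edgeR) but -0.54 without furosemide library 2, which held 18 of the 45 cells of cluster 4.

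The 4 endothelial genes were tested, with 0 called and a median change of -0.35. Cdh5 was at 4932, 6716 and 8927 CPM in furosemide libraries 2, 4 and 6, against 9473, 8262 and 5879 CPM in vehicle libraries 1, 3 and 5, which overlapped (-0.20 ± 0.32, adjusted p = 0.876 by edgeR). Pdgfb, the platelet-derived growth factor by which endothelium recruits pericytes, differed by -0.49 ± 0.37 (adjusted p = 0.850 by edgeR). Edn1 had the smallest p of the genes lower with furosemide. It was at 1115, 1046 and 1994 CPM in the furosemide libraries, against 2732, 3141 and 2435 CPM in the vehicle libraries. The groups did not overlap, and the change of -1.004 ± 0.33 had an unadjusted p of 0.0198 and an adjusted p of 0.656 by edgeR, so it was not called. The same estimate was -0.95 among cells with Cdh5 and -0.997 among the cells of cluster 6, and neither was called. Among cells with Cdh5, 0 of 206 genes were called by edgeR and 11 (5.34%) had an unadjusted p under 0.05, and among cells without Cdh5 these counts were 0 and 8 (6.61%) of 121.

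Of the other genes with the smallest p in the lower direction, Tgfb2 (transforming growth factor beta 2) was at 189, 199 and 119 CPM in furosemide libraries 2, 4 and 6, against 220, 419 and 340 CPM in vehicle libraries 1, 3 and 5 (-0.90 ± 0.37 by edgeR). Hspa1a, an inducible heat shock protein, was at 17138, 14728 and 10660 CPM with furosemide, against 24571, 22330 and 22362 CPM with vehicle (-0.70 ± 0.26). Hist1h1c, a linker histone, averaged 1252 ± 91.2 CPM with furosemide and 1964 ± 256 CPM with vehicle (SD, n = 3 each; -0.65 ± 0.23). The treatments did not overlap for these 3 genes, but none passed (adjusted p = 0.656 by edgeR for each). Aqp1 was at 8786, 8709 and 6743 CPM with furosemide, against 7020, 21987 and 29642 CPM with vehicle, which overlapped (-1.27 ± 0.51, adjusted p = 0.656 by edgeR). Aqp1 led cluster 2, which had 5, 11 and 4 cells in the furosemide libraries, against 3, 11 and 23 in the vehicle libraries.

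**Figure D5:**
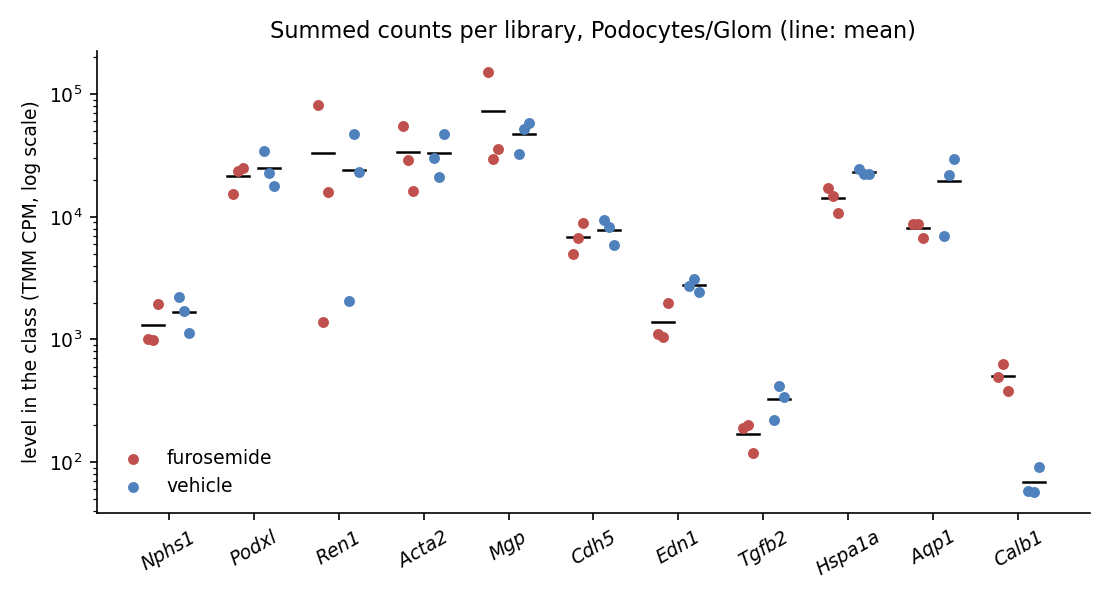
Level of 11 genes in counts summed over Podocytes/Glom cells (vertical axis, TMM-scaled CPM, log scale), with 1 point per library, furosemide left and vehicle right of each pair, and a line at the mean of 3 libraries. The libraries overlap for Nphs1, Podxl, Ren1, Acta2, Mgp, Cdh5 and Aqp1, and all 3 furosemide libraries are above all vehicle libraries for Calb1.

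Calb1 encodes calbindin-D28k, the calcium-binding protein of the distal convoluted and connecting tubule. In the class it was at 491, 628 and 380 CPM in furosemide libraries 2, 4 and 6, against 58.7, 57.1 and 91.6 CPM in vehicle libraries 1, 3 and 5. The libraries were far apart, and the change was 2.81 ± 0.38 (SE; adjusted p = 0.0348 by edgeR's quasi-likelihood test). These levels rest on 105 counts in 39 furosemide cells, against 14 counts in 12 vehicle cells, and on 62 counts in 3 of the furosemide cells with 43, 10 and 9. The cell with 43 also had 349 counts of Acta2 together with 49 of S100g and 38 of Slc12a3, which are both distal tubule genes. The cell with 10 had 273 counts of Acta2, 44 of S100g and 6 of Slc12a3. The cell with 9 had 151 of S100g and 30 of Slc12a3 but 0 of Acta2, Cdh5 and Podxl. Without the cell with the most Calb1 in each library the change was 2.57, with an adjusted p of 0.384, and leaving out any 1 of the 6 libraries ended the call (change 2.59 to 3.08, adjusted p 0.121 to 0.341 by edgeR). The adjusted p was 0.0672 by edgeR with no filter on low counts. After cells above 1% of listed distal tubule markers were left out, too few counts of Calb1 remained for a test. Calb1 is itself among those markers, so this filter removes its counts by construction and says nothing about the call.

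The values of other tubule genes and of other classes stand beside this result. Mean Calb1 was higher with furosemide in all 14 other classes, by 0.04 to 2.52 on the log2 scale, and in all other cells together it was at 12140, 10519 and 12385 plain CPM in furosemide libraries 2, 4 and 6, against 4558, 4784 and 3198 in vehicle libraries 1, 3 and 5. With furosemide, the Calb1 level of the class was 0.624% of that of DCT2. Of the connecting tubule list, 5 of 7 genes were in the panel and had a count in the class, none at 0, and their sum was 3050 to 5465 CPM in furosemide libraries, against 777 to 2847 CPM in vehicle libraries. Of the distal convoluted tubule list, 6 of 7 panel genes had a count, Pvalb was at 0, and the sum was 3665 to 4842 CPM with furosemide, against 2683 to 4482 CPM with vehicle. Of the proximal tubule list, 17 of 19 panel genes had a count, Slc22a7 and Fabp1 were at 0, and the sum was 29143 to 62364 CPM with furosemide, against 23241 to 33107 CPM with vehicle. The sums of the connecting tubule list, which holds Calb1 itself, did not overlap between treatments. Single cells weighed on these sums. S100g, a gene of that list, had 151 counts in 1 cell and 44 in another of furosemide library 2, and 49 in 1 cell of furosemide library 4. The sums without these cells were not computed. Those of the proximal, distal convoluted, thin limb, thick ascending limb, principal and intercalated lists overlapped. The thin limb list, of which 3 of 4 panel genes had a count and Slc14a2 was at 0, summed to 6924 to 9861 CPM with furosemide, against 7738 to 28481 CPM with vehicle, and Aqp1 was its sole gene tested. The thick ascending limb list, with 9 of 9 panel genes counted, summed to 1695 to 4461 CPM with furosemide, against 1591 to 4797 CPM with vehicle, and its 5 tested genes had a median change of -0.04. The principal cell list summed to 339 to 1244 CPM with furosemide, against 380 to 896 CPM with vehicle, and the intercalated cell list to 339 to 988 CPM with furosemide, against 125 to 566 CPM with vehicle. All 10 proximal genes tested had an estimate above 0, with a median of 1.496 and 0 called. Over all 239 genes tested, 116 estimates were above 0. Some listed genes also led clusters of the class. Cyp4b1 of the proximal list was counted in 97.5% of the cells of cluster 3, and Aqp1 of the thin limb list in 73.7% of those of cluster 2. Gpx1, also on the proximal list, was counted in 97.3% of class cells. Kap, the kidney androgen-regulated protein of the proximal tubule, was counted in 73.2% of class cells and in 64.5% to 100% of the cells of every other class. The part of such transcripts in the Calb1 result was not tested.

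Whether genes changed differently in the class than in all other cells was tested as an interaction with the library as a block. The mix of classes among the other cells differed between treatments, and the test cannot tell that apart from a change per cell. Of 431 genes, 0 were called by edgeR, 22 (5.10%) had an unadjusted p under 0.05, and limma-voom called 1. That gene, Nupr1, a stress-induced nuclear protein, had 37 counts in the class and a difference of 3.10 ± 0.65 by edgeR (adjusted p = 0.544). Next to it in the positive direction stood Slc2a2, Plaur, Pck1 and Cxcl2, and in the negative direction Tfrc, Clu, Edn1, C1qa and Ern1. Clu (clusterin) was at 3228 ± 695 CPM in furosemide and 3938 ± 465 CPM in vehicle class cells (SD, n = 3 each), a change of -0.29 in the class against 0.87 in all other cells, and the difference was -1.14 ± 0.35 (adjusted p = 0.740 by edgeR).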

How the data were processed

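Per the labels' protocols, messenger RNA of single kidney cells was captured on BD Rhapsody beads. The deposited table holds counts, whole numbers per cell and gene that the authors had not normalized, and a deposited annotation of other values lists the class, library, treatment and cluster of every cell. Bowtie2 2.2.9 is named in the submitters' processing notes; genome build and counting are not given in the sources used here. Library numbers could not be joined to the sample titles, so libraries are named by treatment and number. Nothing says that libraries came from separate animals, so p-values measure only the spread between them. Libraries held 4819988 to 7635509 counts in all and 41306 to 90050 in the class.

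Counts of class cells were summed per library and tested with the robust quasi-likelihood fit of edgeR 4.0.16 (R 4.3.3; filterByExpr, TMM scaling, Benjamini-Hochberg adjustment over all genes tested). A gene was called at an adjusted p under 0.05. Changes are log2, furosemide over vehicle. DESeq2 1.42.0 and limma 3.58.1 were alternatives, and the test was tried on simulated counts. Cells were clustered with scanpy 1.11.5 (Leiden, resolution 0.2, 15 principal components). The files' names say that doublets had been removed, and no doublet caller was run. Levels of classes and clusters, and lists' sums, are plain CPM within the panel. The rule for named genes took the 4 markers, counted members of the podocyte, smooth muscle, juxtaglomerular, endothelial and renin-angiotensin lists, the 20 genes with the highest ratio to the next class, called genes, the 5 of smallest p where a direction had none, and 5 per direction of the interaction. Genes outside the rule were picked with their values in view. The members and lists were chosen with earlier results of these data known. The values of 1 gene are not reported here.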

Additional observations from a re-analysis of the deposited data

How the results depend on the processing

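Calb1 was the 1 gene called with RLE size factors, library size alone, DESeq2, limma-voom and the second clustering, which holds the same 514 cells. The count of genes called was 0 with no filter on low counts, a minimum count of 5, the top 5% of totals left out, thinned cells, cells above 1% of a listed tubule marker left out, cells above 1% of listed distal markers left out, only cells with Cdh5, only cells without Cdh5, only cluster 6, without cluster 4, and without the cell with the most Calb1 or the most Ren1 per library, and 0 to 0 when single libraries were left out. The 7 settings on Cdh5, clusters 4 and 6, distal markers and top cells were chosen after seeing the data. Leaving out cells above 1% of a listed tubule marker kept only 108 of the 514 cells, with 10 to 34 per library. The lists include Gpx1, counted in 97.3% of class cells. The tubule and distal lists also hold Calb1, so leaving out such cells removes its counts by construction. In settings that tested Calb1, its change stayed between 2.17 and 3.08, with adjusted p of 0.000876 to 0.549. The cause was not tested. No other gene whose change is reported passed in any setting, and several uncalled changes took the other sign. Ren1 was at -0.10 with limma-voom, -0.51 without the top 5% of totals, -1.80 in cells with Cdh5, -0.081 without its top cells, and -1.49 to 1.41 without single libraries. Acta2 was at -0.028 with library size alone, -0.073 with limma-voom, -0.023 with no filter, -0.15 thinned, -0.77 without tubule-marker cells, -0.43 in cells without Cdh5, -0.069 without the top Calb1 cells, and -0.53 to 0.39 without single libraries. Without tubule-marker cells, Synpo was at -0.13 and Npnt at 0.032. Mgp was at -0.31 in cells with Cdh5, and Synpo at -0.42 in cells without. In cluster 6 alone, Synpo was at -0.075, Vegfa at 0.048 and Agtr1a at -0.22. Mgp was at -0.073 without cluster 4. Without single libraries, Podxl ranged from -0.42 to 0.10 and Mgp from -0.54 to 0.98.

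The difference in class share was 0.103 percentage points, -0.226 outside TAL, and -0.102 to 0.405 without single libraries. For Nphs1 the difference in the share of class cells was 1.15 points, but -1.24 at 2 counts or more, -0.126 at 5 and -2.88 at 10, where the libraries did not overlap, and -2.26 to 3.93 without single libraries. Without single libraries it was -13.5 to 5.43 points for Podxl, 1.90 to 5.02 for Ren1 and -13.5 to -3.65 for Acta2, whose difference was -7.95 at 5 counts or more, again without overlap. The interaction gave 1 call with limma-voom and a random library block, and 0 in its other settings. No paired analysis was possible because the columns carry library numbers that match no replicate number of the sample titles. With 61 to 118 class cells per library and a median of 648 counts, low genes and small changes were not detectable at this depth.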

Other observations

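Several other gene groups of the class were described by count and median only. Of the matrix and matricellular list 17 genes were tested, with 0 called and a median change of -0.06, and of the growth factor list 6 were tested, with 0 called and a median of -0.41. Of the list of immediate early, heat shock and endoplasmic reticulum stress genes 11 were tested, with 0 called, 9 estimates below 0 and a median of -0.30, beside -0.01 over all genes tested. Col1a1, which led cluster 4 together with Igfbp6 and C3, was at 2305, 289 and 0 CPM in furosemide libraries 2, 4 and 6, against 14.7, 76.1 and 262 CPM in vehicle libraries 1, 3 and 5, with a change of 2.81 ± 1.57 (SE; adjusted p = 0.746 by edgeR). Cluster 4 itself was uneven, with 18 of its 45 cells from furosemide library 2 and 15 from vehicle library 5.

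Cldn5, a claudin of tight junctions, was not among the lists and had one of the highest ratios to the next class. It had a count in 260 class cells, including 27 of the 28 podocyte-like cells and 133 of the 203 cells of cluster 6, against at most 0.549% of cells in another class (Immune). Ren1 was also counted together with Cdh5: all 16 cells of cluster 6 with a count of Ren1 had a count of Cdh5, against 3 of 13 such cells of cluster 5. Almost every cell of cluster 6 had Cdh5 and few of cluster 5 did, so this contrast follows from the clusters and describes no trait of cells with Ren1. Whether cells with both genes are single cells was not tested.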
